A study of Mus musculus with 15 samples.

Results

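The genes described here encode the subunits of the 5 oxidative phosphorylation complexes of mitochondria, in mouse Lewis lung carcinoma cells with and without *Keap1* or *Nfe2l2*. Members were picked by symbol (*Nduf*, *Sdh*, *Uqcr*, *Cox4* to *Cox8*, *Atp5* and the protein genes of the mitochondrial genome) and by a mean level of at least 1 over the 15 samples. Of the 35880 genes in the table, 98 carried such a symbol and 91 reached the minimum. The 7 that did not were *Cox4i2*, *Cox6a2*, *Cox6b2*, *Cox6c2*, *Cox7b2*, *Cox8b* and *Cox8c*, most of them known as isoforms of muscle, lung or testis, with means from 0 to 0.815. Complex I had 43 members (36 nuclear and 7 mitochondrial), complex II had 4, complex III had 9 (8 and 1), complex IV had 16 (13 and 3) and complex V had 19 (17 and 2). *Ndufa4* was placed in complex IV, where its protein belongs, and *Cox7a2l*, a factor that joins complexes into supercomplexes, is listed there too. All 91 passed the filter on low values, 78 of them nuclear and 13 mitochondrial.

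RNA was sequenced from 5 cultured lines with 3 biologic replicates each, 24 h after the cells were split. All lines derived from LL2/Luc2, a Lewis lung carcinoma line that carries luciferase. LL2 WT was the unedited parent. *KEAP1* KO #1, #2 and #3 and *NRF2* KO were each grown from 1 sorted cell after a plasmid with Cas9 and a guide against *Keap1* or *Nfe2l2* had been delivered, so genotype and clone cannot be told apart in any single line, and the parent was not cloned in this way. KEAP1 marks the transcription factor NRF2 for degradation, and its loss leaves NRF2 active. The question put to the table was how the respiratory chain genes stood in lines with active or absent NRF2.

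Complexes I to IV carry electrons from NADH and succinate to oxygen and, except for complex II, pump protons across the inner mitochondrial membrane. Complex V, the ATP synthase, uses the proton gradient to make ATP. The mitochondrial genome encodes a few core subunits of complexes I, III, IV and V, which are transcribed as long precursors from both strands and cut into messengers. All other subunits are transcribed from nuclear chromosomes and imported as proteins, and complex II is wholly nuclear. Messenger levels are not a measure of complex abundance or respiration.

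Levels are in TPM, which are scaled for depth and transcript length and so can be set side by side between genes. Samples summed to between 999412 and 999525 TPM, with 17270 to 19750 genes above 0, and 1 read on a transcript of 1000 bases was worth about 0.0276 to 0.0476 TPM. *Keap1* ranged from 22.0 to 24.0 TPM in LL2 WT, from 10.8 to 12.5 in *KEAP1* KO #1 and from 3.78 to 7.29 in *KEAP1* KO #2 and #3, and *Nqo1*, a target gene of NRF2, ranged from 26.1 to 36.5 TPM in LL2 WT, from 253 to 545 in the 9 *KEAP1* KO samples and from 8.55 to 10.96 in *NRF2* KO. *Nfe2l2* ranged from 170.2 to 207.7 TPM in LL2 WT and from 101.9 to 146 in *NRF2* KO, but was as low in the *KEAP1* KO samples, at 87.0 to 124. The labelled lung cancer origin was only in part visible: *Krt8* and *Krt18* were expressed, whereas *Epcam*, *Cdh1*, *Sftpc*, *Sftpb* and *Nkx2-1* reached at most 0.837 TPM, and the mesenchymal gene *Vim* reached 1530 to 5430. The summed level of the mesenchymal markers *Vim* and *Fn1* was 3570 to 5790 TPM in LL2 WT and 1550 to 2150 TPM across the *KEAP1* KO clones, and that of the 4 epithelial markers, nearly all of it *Krt8* and *Krt18*, was 591 to 662 in LL2 WT, 299 to 435 in *KEAP1* KO #1, 560 to 610 in #2, 536 to 636 in #3 and 385 to 546 in *NRF2* KO. *KEAP1* KO #1 thus lay below the other clones for the epithelial sum. The part of these markers in the results below was not tested. The pan-leukocyte gene *Ptprc* reached at most 0.192 TPM, and the 5 leukocyte markers together 1.99 to 4.60 TPM in LL2 WT and 14 to 36.5 in *KEAP1* KO #3, nearly all of it *Cd68*.

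Near-complete nuclear copies of 4 mitochondrial messengers were listed at high levels and shared the reads. A copy of *mt-Nd4l*, *Gm10222*, holds 98.9% of its stretches of 31 bases but was listed at 0. The copies are unprocessed pseudogenes that the table lists as genes of their own. They matter for the levels of these genes, because a read that matches a gene and its copy is divided between both by the pseudo-alignment. The strongest case was *mt-Nd3* and its copy *Gm28438*, and their ends are shown because these hold all the differences between them. *mt-Nd3* lies on the mitochondrial chromosome at chrM:9459-9806 of GRCm38, plus strand, as a protein coding gene in 1 exon, and *Gm28438* lies at chr1:24612775-24613119, minus strand. The stretches run 5′ to 3′ and cover chrM:9459-9518 against chr1:24613060-24613119, then chrM:9747-9806 against chr1:24612775-24612831. Capitals mark the bases that the other sequence lacks or has changed.
mt-Nd3, first bases: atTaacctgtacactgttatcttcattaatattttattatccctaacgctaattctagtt
Gm28438, first bases: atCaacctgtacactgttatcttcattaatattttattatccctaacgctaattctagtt
mt-Nd3, last bases: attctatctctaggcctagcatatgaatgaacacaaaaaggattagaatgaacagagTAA
Gm28438, last bases: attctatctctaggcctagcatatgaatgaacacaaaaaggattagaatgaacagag
The gene has 348 bases and the copy 345. They differ by 1 substitution, T3C, counted from the first base of the gene, and by 3 bases missing at the end of the copy. *mt-Atp6* against *Gm10925*, *mt-Co2* against *Gm28661* and *mt-Co3* against *Gm28437* showed 0 substitutions over the length of the copy. Over the 15 samples, *Gm28438* held 57.9% to 83.2% of the summed level of its pair, *Gm10925* held 23.9% to 62.8%, *Gm28661* held 3.52% to 51.3% and *Gm28437* held 3.54% to 23%. The division thus moved between samples of 1 line, and results for these 4 genes are given both as listed and with the copy added back, an addition chosen after seeing the data. Another 8 mitochondrial members (*mt-Atp8*, *mt-Cytb*, *mt-Nd1*, *mt-Nd2*, *mt-Nd4*, *mt-Nd4l*, *mt-Nd5* and *mt-Nd6*) had no copy above 1 TPM.

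Neighbouring messengers also overlap. The *mt-Atp8* transcript is shown with the bases it shares with *mt-Atp6* in capitals. It lies at chrM:7766-7969, plus strand.
mt-Atp8: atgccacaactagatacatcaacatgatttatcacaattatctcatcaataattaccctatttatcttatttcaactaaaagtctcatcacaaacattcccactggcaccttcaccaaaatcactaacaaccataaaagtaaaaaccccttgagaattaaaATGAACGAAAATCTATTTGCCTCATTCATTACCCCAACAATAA
The overlap measures 43 bases, and *mt-Nd4l* overlaps *mt-Nd4* by 7. With 204 bases, *mt-Atp8* is shorter than the length of 220 to 264 bases that the authors' scaling took off each transcript, so its level per length is uncertain, and it was 1.5 to 3.22 times the level of *mt-Atp6*, with which it shares 1 messenger.

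Messengers of the mitochondrial genome were about 1.5-fold higher in *KEAP1* KO #2 and #3 than in LL2 WT and close to LL2 WT in *KEAP1* KO #1 and *NRF2* KO. The summed level of the 13 was 24544, 35303 and 30927 TPM in LL2 WT and 29194, 35002 and 29045 TPM in *KEAP1* KO #1. It was 46714, 50646 and 43053 TPM in *KEAP1* KO #2, 50186, 49641 and 45828 TPM in *KEAP1* KO #3, and 25472, 35388 and 33667 TPM in *NRF2* KO. All 6 samples of *KEAP1* KO #2 and #3 lay above the other 9 samples. The ratio of the line mean to that of LL2 WT was 1.03 in *KEAP1* KO #1, 1.55 in #2, 1.61 in #3 and 1.04 in *NRF2* KO, and with all nuclear copies added it was 0.994, 1.54, 1.54 and 0.953. A sum over members was given no test. In RNA of a whole culture, fewer cells of a kind and less RNA per cell cannot be told apart.

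**Figure D1:**
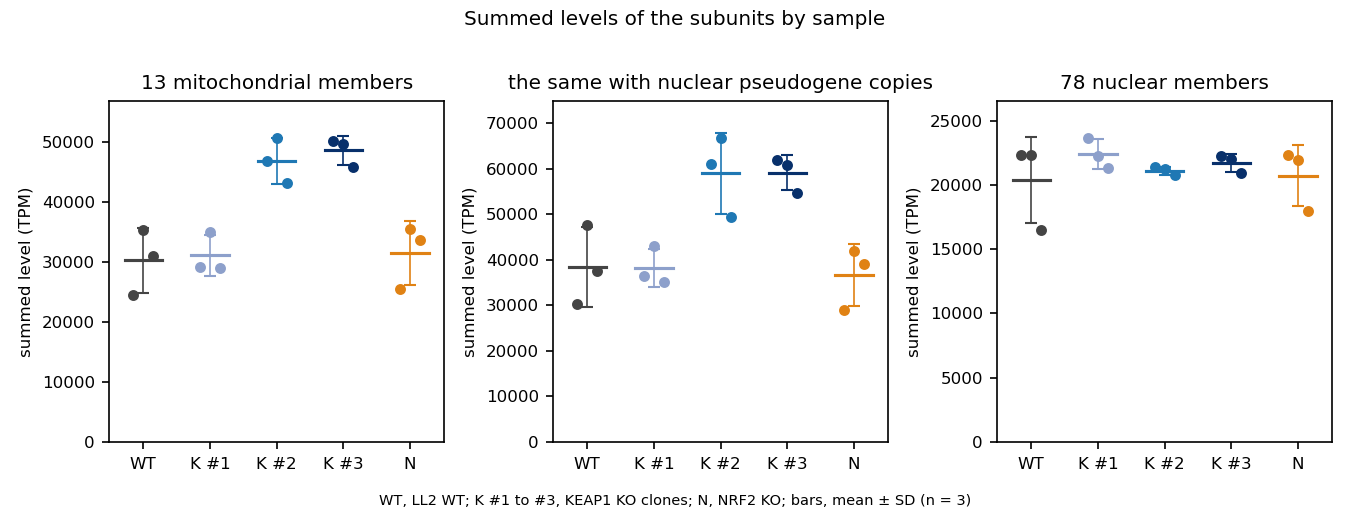
Summed levels in TPM of the mitochondrial members, of the same with their nuclear pseudogene copies, and of the nuclear members, with 1 point a sample and the mean ± SD of each line (n = 3). The 6 samples of *KEAP1* KO #2 and #3 lie highest for the mitochondrial members, and LL2 WT replicate 3 lies lowest for the nuclear ones.

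The differences were then tested gene by gene with limma on log2(TPM + 0.1) over the 14652 genes that passed the filter, with Benjamini-Hochberg adjustment over all of them, and a gene is said to have risen or fallen at an adjusted p under 0.05. All comparisons with LL2 WT share its 3 samples, so they are not independent of each other. In *KEAP1* KO #2, 10 of the 13 mitochondrial members rose and 0 fell, where 17.3% of all genes tested rose. In *KEAP1* KO #3, 10 of 13 rose and 0 fell, where 16.6% of all genes rose. In *KEAP1* KO #1, 0 of 13 rose, where 15.9% of all genes rose, and 0 of 13 passed an unadjusted p under 0.05. The median log2 fold change of the 13 was 0.11 in *KEAP1* KO #1, 0.59 in #2 and 0.57 in #3, beside 0.11, 0.03 and 0.02 for all genes tested. In *KEAP1* KO #3 all 3 samples lay above every LL2 WT sample for 13 of 13 members, and in *KEAP1* KO #2 for 9, where this held for 22.0% and 23.4% of all genes. By the second rule, an absolute log2 fold change over 1 as well, *mt-Nd3* rose in *KEAP1* KO #2 (5.94% of all genes did), *mt-Nd1* and *mt-Nd3* rose in #3 (6.09%) and *mt-Nd3* rose in the mean of the clones (5.81%). All 6 samples of *KEAP1* KO #2 and #3 lay above all other 9 for *mt-Co1*, *mt-Co2*, *mt-Cytb*, *mt-Nd3*, *mt-Nd4*, *mt-Nd4l* and *mt-Nd5*, 7 of 13, where 4.15% of all genes did. The calls leaned on single samples: without LL2 WT replicate 1 there were 4 in *KEAP1* KO #2 and 6 in #3, and without replicate 2 of *KEAP1* KO #2 there were 4 in that line. Calls over all genes tested fell as well. Without LL2 WT replicate 1 they went from 4680 to 3604 in #2 and from 4604 to 3588 in #3. Without replicate 2 of *KEAP1* KO #2 they went to 3224 in that line. With copies added there were 10 and 8.

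Complex I held the largest changes of the set. Its mitochondrial members form the membrane arm that moves protons, and 5 of the 7 (*mt-Nd1*, *mt-Nd3*, *mt-Nd4*, *mt-Nd5* and *mt-Nd6*) rose in both *KEAP1* KO #2 and #3. Of all genes tested, 17.3% rose in #2 and 16.6% in #3. How many rose in both was not counted, and both comparisons use the same LL2 WT samples. *mt-Nd3* was listed at 500.0, 679 and 548 TPM in LL2 WT, 602, 625 and 749 in *KEAP1* KO #1, 1577, 1374 and 2055 in #2, 1982, 1818 and 1286 in #3 and 920, 822 and 783 in *NRF2* KO. The values of *KEAP1* KO #2 and #3 lay above all others, and those of *NRF2* KO above LL2 WT. As listed, the log2 fold change was 1.53 in *KEAP1* KO #2 (adjusted p = 4.7e-05) and 1.55 in #3 (adjusted p = 3.9e-05). With *Gm28438* added, the pair stood at 2731, 4042 and 2758 TPM in LL2 WT, at 6263, 6639 and 4879 in *KEAP1* KO #2, at 6396, 5920 and 5277 in #3 and at 2618, 3272 and 3210 in *NRF2* KO. The 6 samples still lay highest, the log2 fold change shrank to 0.91 and 0.90 (adjusted p = 0.0011 in both), and in *NRF2* KO it went from 0.56 to −0.05 (adjusted p = 0.95).

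*mt-Nd1*, which has no such copy, stood at 1519, 3517 and 1465 TPM in LL2 WT and at 2033, 2430 and 2035 TPM in *KEAP1* KO #1. It reached 3900, 4282 and 3508 TPM in *KEAP1* KO #2, 3949, 4193 and 3888 TPM in #3 and only 1595, 2190 and 1641 TPM in *NRF2* KO. LL2 WT replicate 2 was far above its partners and overlapped *KEAP1* KO #2. The change on the log2 scale was 0.97 with a standard error of 0.26 in *KEAP1* KO #2 and 1.01 in #3 (adjusted p = 0.013 and 0.010). *mt-Nd5* gave 396, 525 and 438 TPM in LL2 WT, 670, 726 and 644 in *KEAP1* KO #2 and 667, 695 and 730 in #3, with *KEAP1* KO #1 at 516, 488 and 497 and *NRF2* KO at 342, 501 and 477. Here LL2 WT and *KEAP1* KO #2 or #3 did not overlap, and the gene rose by 0.59 and 0.63 (adjusted p = 0.0049 and 0.0033). *mt-Nd4* rose by 0.47 and 0.41 and *mt-Nd6*, the only protein gene on the other strand, by 0.57 in both. *mt-Nd2* (0.41 in both, adjusted p = 0.17) and *mt-Nd4l* (0.45 in both, adjusted p = 0.072 and 0.073) missed the threshold.

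In complex III the mitochondrial genome supplies cytochrome b. *mt-Cytb* measured 1574, 2210 and 1545 TPM in LL2 WT, 2647, 3013 and 2293 in *KEAP1* KO #2, and 2435, 2436 and 2210 in #3. *KEAP1* KO #1 (1824, 1831 and 1485) and *NRF2* KO (1618, 2070 and 1663) overlapped LL2 WT. The gene rose in *KEAP1* KO #2 (log2 fold change 0.59, adjusted p = 0.012), and the difference of 0.43 in #3 fell short (adjusted p = 0.052).

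In complex IV the mitochondrial genome encodes the catalytic core. *mt-Co1*, which binds the heme where oxygen is reduced, was 2647, 3134 and 3458 TPM in LL2 WT, 3562, 3952 and 4271 in *KEAP1* KO #2 and 3764, 3729 and 4368 in #3. The groups did not overlap, and the differences of 0.36 and 0.37 passed the test (adjusted p = 0.037 and 0.033). With copies added the second missed it (0.33, adjusted p = 0.057). *mt-Co2*, whose copper site takes electrons from cytochrome c, rose by 0.74 and 0.71 as listed (adjusted p = 0.0024 and 0.0031), and by 0.50 and 0.42 with *Gm28661* added (adjusted p = 0.018 and 0.042). *mt-Co3* rose as listed in *KEAP1* KO #3 (0.54, adjusted p = 0.0089), but not with *Gm28437* added (0.44, adjusted p = 0.078), and in *KEAP1* KO #2 it gave 0.30 (adjusted p = 0.11).

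In complex V the mitochondrial members lie in the membrane part of the enzyme, where *mt-Atp6* forms the proton path. *mt-Atp6* was listed at 2386, 3012 and 3255 TPM in LL2 WT, 2995, 4033 and 3185 in *KEAP1* KO #1, 4531, 4932 and 4747 in #2, 5632, 5504 and 4937 in #3 and 3291, 4314 and 4785 in *NRF2* KO. The order of *NRF2* KO against LL2 WT depended on the copy: as listed all 3 samples lay above LL2 WT, but with *Gm10925* added they stood at 4814, 6823 and 6291 TPM against 4367, 8092 and 5567. In *KEAP1* KO #2 and #3 the gene rose as listed (0.73 and 0.90, adjusted p = 0.0039 and 0.00088) and with the copy (0.79 and 0.75, adjusted p = 0.029 and 0.036). *mt-Atp8* rose too (0.79 and 0.85, adjusted p = 0.045 and 0.033), but *KEAP1* KO #2 replicate 3, at 9661 TPM, lay below LL2 WT replicate 2, at 9675. The uncertain level of *mt-Atp8* is part of the summed level of the 13 members. Its line mean in LL2 WT was 7711 TPM, beside 30258 for the sum, and no sum leaving out this gene alone was taken.

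**Figure D2:**
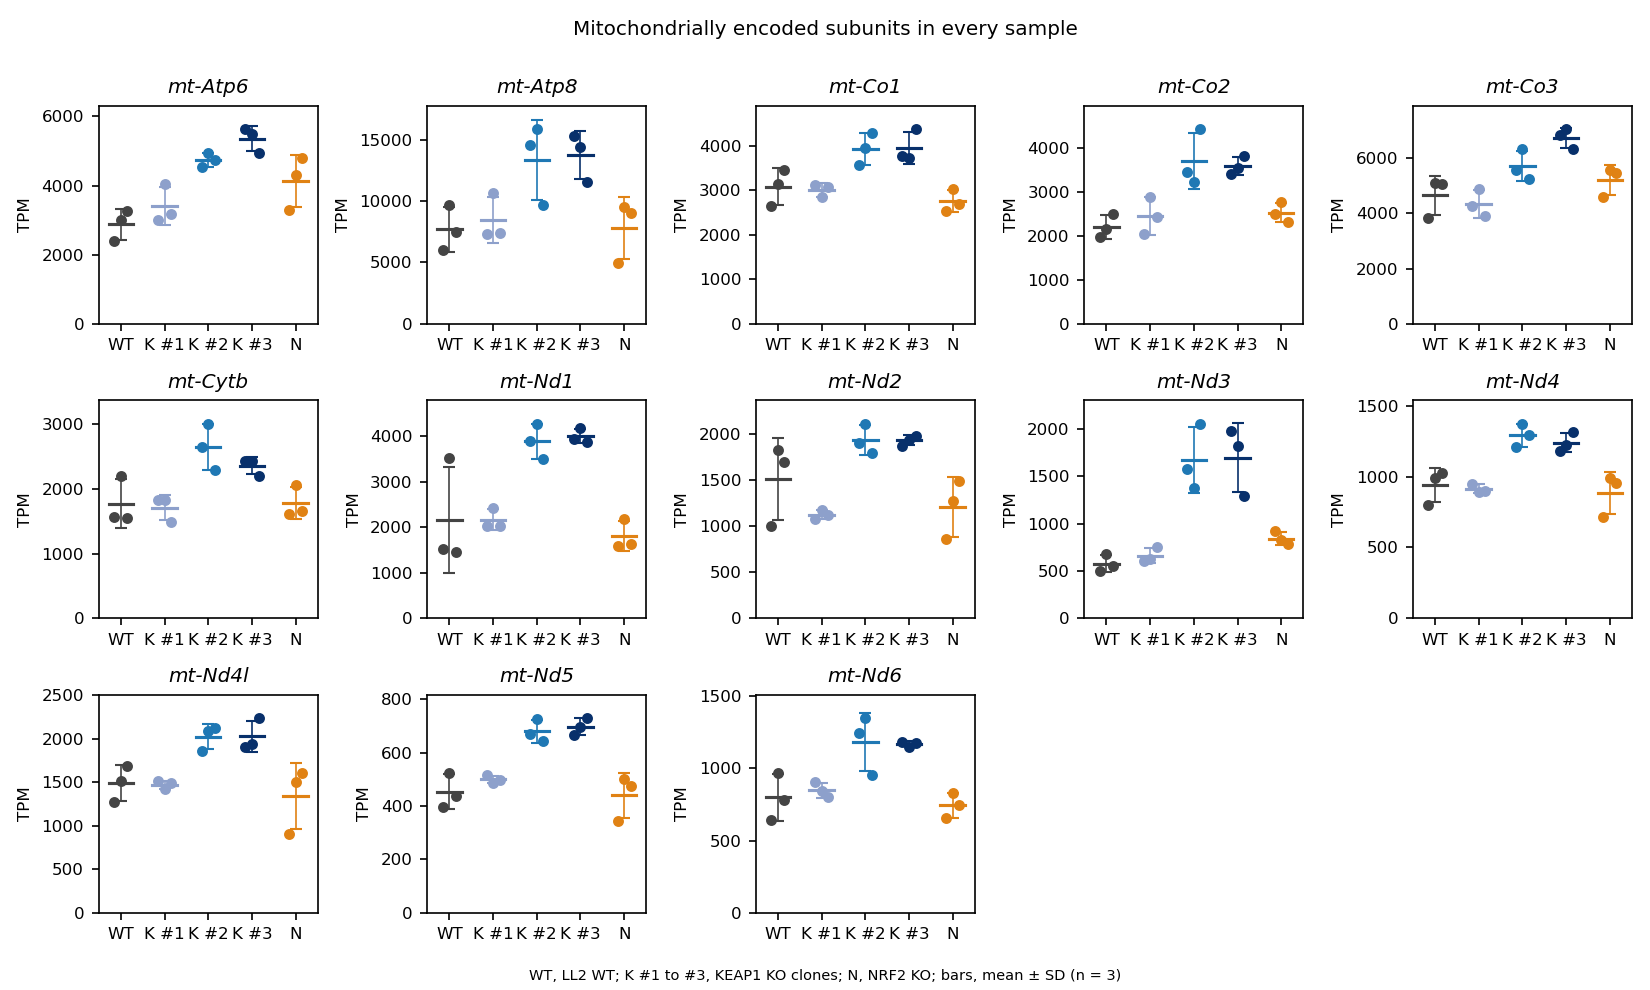
Level in TPM of each mitochondrial member in every sample, with the mean ± SD of each line (n = 3), as listed and without pseudogene copies. *KEAP1* KO #2 and #3 lie above LL2 WT in most panels, and in the *mt-Nd1* panel 1 LL2 WT sample stands at 3517 TPM.

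**Figure D3:**
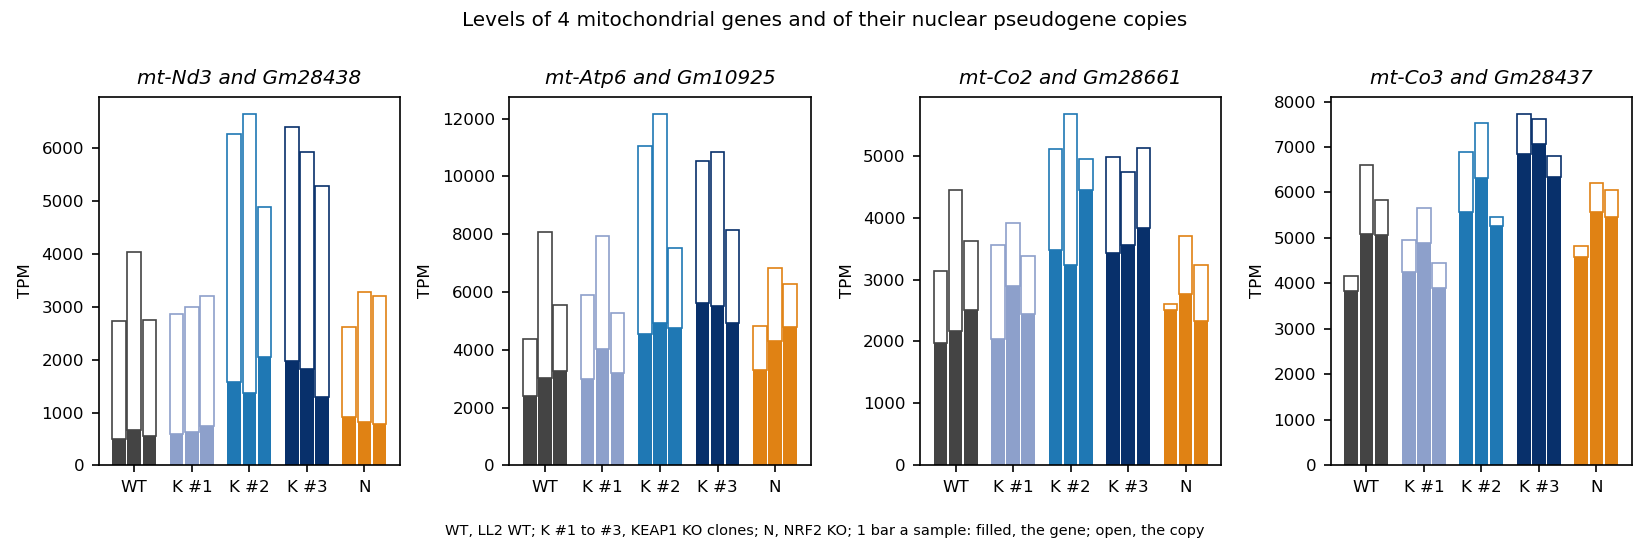
Level in TPM of *mt-Nd3*, *mt-Atp6*, *mt-Co2* and *mt-Co3* (filled) and of the nuclear pseudogene copy of each (open, stacked on top), with 1 bar a sample. The open part ranges from 57.9% to 83.2% of the bar for *mt-Nd3* and from 3.54% to 23% for *mt-Co3*.

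The 3 *KEAP1* KO clones thus did not share 1 mitochondrial pattern, and the difference between them was tested directly. Against *KEAP1* KO #1, 5 of the 13 mitochondrial members were higher in *KEAP1* KO #2 (3.94% of all genes tested were) and 9 in *KEAP1* KO #3 (4.55%), and 0 were lower. With copies added these counts were 6 and 5: in #2 *mt-Co1* came in (0.41, adjusted p = 0.046), and in #3 *mt-Atp6*, *mt-Co3*, *mt-Co2* and *mt-Co1* dropped out (adjusted p from 0.053 to 0.12). Of the 78 nuclear members 0 were higher than in *KEAP1* KO #1, whereas 8 were lower in #2 and 5 in #3, beside 7.15% and 7.7% of all genes. *mt-Nd3* differed most (1.33 and 1.35 as listed, 0.96 and 0.95 with its copy), and *mt-Nd2* differed by 0.78 in both (adjusted p = 0.035 and 0.033), with 1077, 1169 and 1123 TPM in *KEAP1* KO #1 against 1897, 2108 and 1786 in #2 and 1870, 1931 and 1978 in #3. For *mt-Nd2* LL2 WT stood between, at 996, 1821 and 1695 TPM. *KEAP1* KO #1 lay below LL2 WT replicates 2 and 3, and replicate 2 overlapped *KEAP1* KO #2. Between *KEAP1* KO #3 and #2, 0 of 91 members passed the test, where 0.375% of all genes were higher and 0.389% lower, and 2 members reached an unadjusted p under 0.05. The largest mitochondrial differences between these 2 clones were −0.16 and 0.24.

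**Figure D4:**
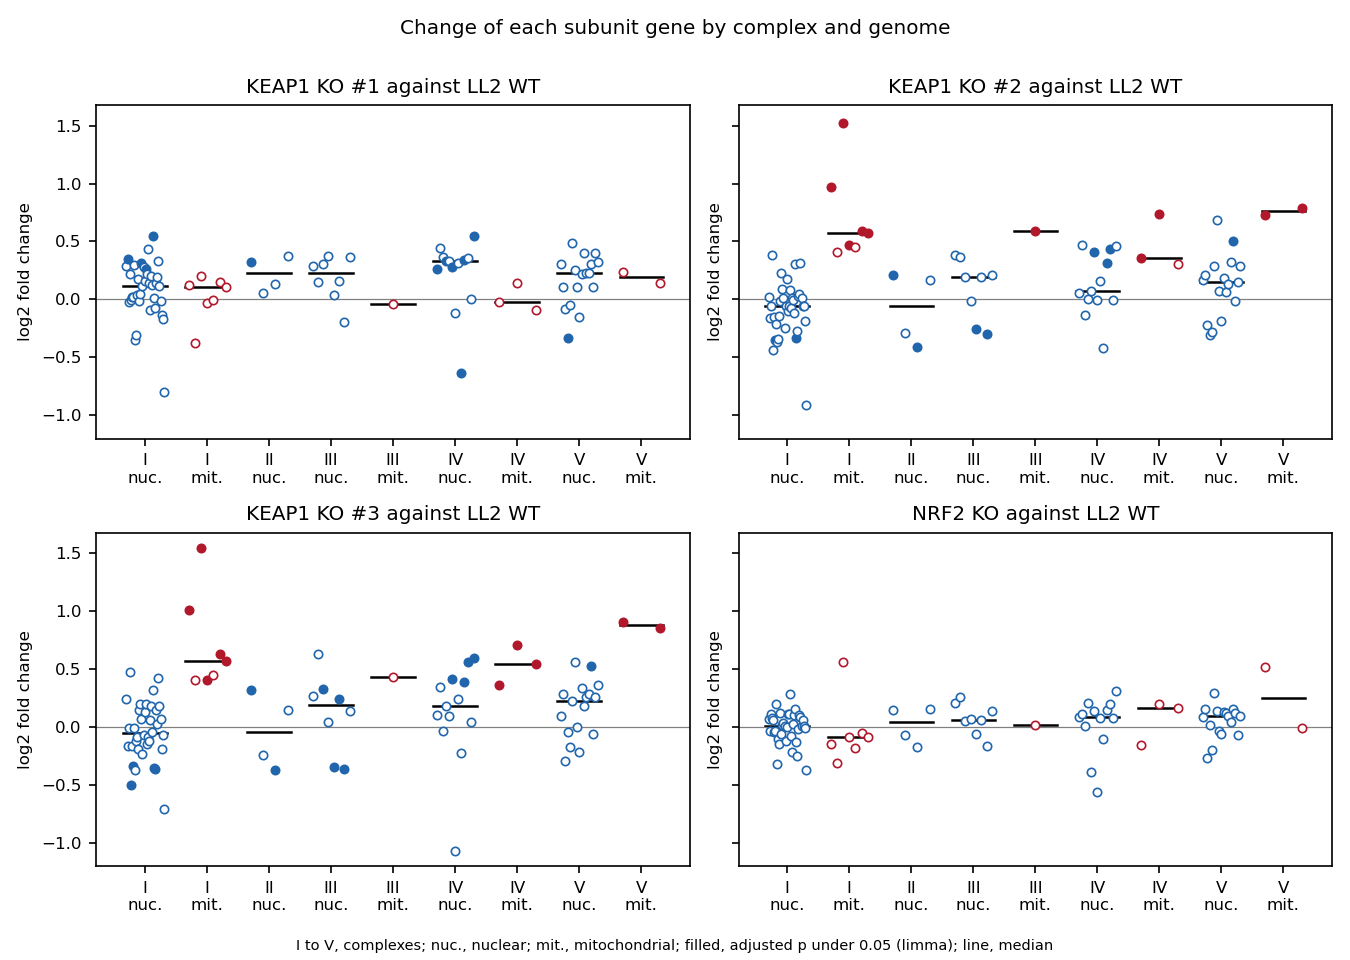
Log2 fold change against LL2 WT of each member by complex and by genome (blue nuclear, red mitochondrial). Filled points have an adjusted p under 0.05 in limma and lines are medians. Red points sit above 0 in *KEAP1* KO #2 and #3, blue points lie on both sides of 0, and 0 points are filled in *NRF2* KO.

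Nuclear subunits moved less, and in both directions. Their summed level was 22317, 22314 and 16503 TPM in LL2 WT, 23668, 22221 and 21332 in *KEAP1* KO #1, 21361, 21215 and 20744 in #2, 22250, 22012 and 20918 in #3, and 22301, 21915 and 17975 in *NRF2* KO. LL2 WT replicate 3 and *NRF2* KO replicate 3 were the lowest, and the lines overlapped. In *KEAP1* KO #1, 10 of 78 nuclear members rose and 2 fell, beside 15.9% and 7.25% of all genes tested. In *KEAP1* KO #2, 5 rose and 5 fell, beside 17.3% and 14.6%, and in *KEAP1* KO #3, 8 rose and 7 fell, beside 16.6% and 14.8%. These shares lay at or below those of all genes. All 3 samples lay above every LL2 WT sample for 20, 11 and 16 nuclear members in *KEAP1* KO #1, #2 and #3, beside 24.6%, 23.4% and 22.0% of all genes, and below for 4, 7 and 7, beside 12.4%, 18.6% and 18%. In *NRF2* KO 1 nuclear member lay above and 1 below, and 2 mitochondrial ones above, beside 8.68% and 4.53%. Rescaling each sample by its median ratio to the geometric mean of all samples moved the median over all genes tested from 0.11 to 0.01 in *KEAP1* KO #1 and left 1 nuclear member higher and 4 lower there. In *KEAP1* KO #2 it left 1 higher and 8 lower, and in #3 5 and 5. Quantile normalization gave 5 and 5, 6 and 17, and 6 and 14.

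The nuclear counts also depended on single samples. Without LL2 WT replicate 3, whose nuclear sum was the lowest, 3 nuclear members rose in *KEAP1* KO #1, 2 in #2 and 5 in #3, and 3, 13 and 13 fell. Without LL2 WT replicate 1, 1 fell in *KEAP1* KO #2 and 2 in #3. Leaving out replicate 1, 2 or 3 of *KEAP1* KO #1 gave 2, 3 and 4 rises in that line, and leaving out replicate 1 or 2 of *KEAP1* KO #2 gave 2 rises and 1 fall, and 1 rise and 3 falls. Without replicate 1 or 2 of *KEAP1* KO #3, 4 rose in each case and 3 and 4 fell.

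Few nuclear members of complex I changed. Of its 36 nuclear members, 4 rose in *KEAP1* KO #1 and 0 fell, whereas 0 rose and 2 fell in #2 and 0 rose and 4 fell in #3, lower shares than the 14.6% and 14.8% of all genes that fell. *Ndufs1*, which carries iron-sulfur clusters in the arm that takes electrons from NADH, was 134, 132 and 92.9 TPM in LL2 WT and 170.2, 179.8 and 168 in *KEAP1* KO #1. It was 147, 144 and 145 TPM in *KEAP1* KO #2, 156, 143 and 142 in #3, and 142, 137 and 116 in *NRF2* KO. All *KEAP1* KO samples lay above LL2 WT, and *Ndufs1* rose in *KEAP1* KO #1 (0.55, adjusted p = 0.0073), with 0.30 and 0.32 in #2 and #3 (adjusted p = 0.083 and 0.071). The accessory subunit *Ndufa3* fell in *KEAP1* KO #2 and #3 (−0.35 and −0.34, adjusted p = 0.039 and 0.044), and the core subunit *Ndufs3* and the accessory subunit *Ndufa13* fell in *KEAP1* KO #3 (−0.36 and −0.50, adjusted p = 0.032 and 0.030). The calls of *Ndufa3*, *Ndufs3* and *Ndufa13* were each lost without LL2 WT replicate 1. The accessory subunit *Ndufa10* rose in *KEAP1* KO #1 (0.35, adjusted p = 0.044) and was lower in both other clones than in it (−0.51 in each, adjusted p = 0.013 and 0.011). *Ndufv3* had the lowest log2 fold changes of complex I (−0.80, −0.91 and −0.71), but its LL2 WT samples spread from 129.9 to 267 TPM and it passed the test in 0 of the clones.

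In complex II, succinate dehydrogenase, *Sdha* rose and *Sdhc* fell. *Sdha*, the flavoprotein that oxidizes succinate, was 130.4, 126 and 112 TPM in LL2 WT, 151, 155 and 153 in *KEAP1* KO #1, 139.8, 140.3 and 146 in #2, 149, 146 and 162 in #3 and 136, 136 and 135 in *NRF2* KO. All 9 *KEAP1* KO samples lay above all 6 others. *Sdha* was among the 3 members that rose in every *KEAP1* KO clone (0.32, 0.21 and 0.31, adjusted p = 0.0070, 0.038 and 0.0052). The share of all genes that rose in every clone was not counted, so these 3 are not read as a result about the set. With the median ratio or quantile scaling *Sdha* kept its sign and lost the call in *KEAP1* KO #1 and #2, and in *KEAP1* KO #2 the call was also lost without any 1 of 8 of the 15 samples. *Sdhc*, which anchors the enzyme in the membrane, was 235, 195 and 200.1 TPM in LL2 WT, 248, 215 and 225 in *KEAP1* KO #1, 151, 147 and 175 in #2, 147, 161 and 178 in #3 and 198, 179.5 and 179 in *NRF2* KO. It fell in *KEAP1* KO #2 and #3 (−0.41 and −0.37, adjusted p = 0.0090 and 0.016), and the call in #3 was lost without LL2 WT replicate 1 or without its own replicate 1. Against *KEAP1* KO #1, *Sdhc* was lower by −0.54 and −0.50 (adjusted p = 0.0051 and 0.0075). The iron-sulfur subunit *Sdhb* (0.06, −0.29 and −0.24) and the other anchor *Sdhd* (0.38, 0.17 and 0.15) passed the test in 0 clones.

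In complex III, which passes electrons from ubiquinol to cytochrome c, 0 of 8 nuclear members changed in *KEAP1* KO #1. In #2 0 rose and 2 fell, and in #3 2 rose and 2 fell. Of all genes tested, 15.9%, 17.3% and 16.6% rose in these clones and 7.25%, 14.6% and 14.8% fell. With 8 genes the counts are not read as a result about the complex. *Uqcrc2*, a core protein, was 151, 147 and 143 TPM in LL2 WT, 151, 163 and 139 in *KEAP1* KO #1, 120.4, 128 and 120.1 in #2, 119, 113 and 115 in #3 and 150.1, 136 and 135 in *NRF2* KO. *KEAP1* KO #2 and #3 lay below every other sample, and the gene fell in both (−0.26 and −0.35, adjusted p = 0.021 and 0.0040). *Uqcrh*, the hinge protein beside cytochrome c1, fell as well (−0.30 and −0.36, adjusted p = 0.023 and 0.0087), from 560.0, 579 and 531 TPM in LL2 WT to 463, 468 and 426 in *KEAP1* KO #2 and 431, 432 and 435 in #3. Both calls in *KEAP1* KO #2 were lost with median ratio scaling and without LL2 WT replicate 1. The Rieske iron-sulfur protein *Uqcrfs1* (0.24, adjusted p = 0.032) and *Uqcrb* (0.33, adjusted p = 0.046), a subunit at the ubiquinone site, rose in *KEAP1* KO #3, and either scaling ended both calls. *Uqcr11* and *Uqcr10* spread too widely in LL2 WT (143 to 309 and 236 to 446 TPM) for a difference of their size to pass.

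Complex IV, cytochrome c oxidase, was the complex whose summed nuclear level lay above LL2 WT in every *KEAP1* KO sample. The sum of its 13 members was 5276, 5175 and 4176 TPM in LL2 WT, 5939, 5689 and 5628 in *KEAP1* KO #1, 5410, 5405 and 5389 in #2 and 5801, 5717 and 5524 in #3. In *NRF2* KO the first 2 samples, at 5367 and 5324 TPM, also lay above LL2 WT. By gene, 5 rose and 1 fell in *KEAP1* KO #1, 3 rose in #2 and 4 rose in #3. Of all genes tested, 15.9%, 17.3% and 16.6% rose in these clones and 7.25%, 14.6% and 14.8% fell. With median ratio rescaling, 1 nuclear member over all complexes was higher in *KEAP1* KO #1, 1 in #2 and 5 in #3. The small accessory subunits *Cox6c* and *Cox7b*, named after their values had been seen, were the other two members to rise in every clone. *Cox6c* was 518, 544 and 449 TPM in LL2 WT, 594, 585 and 647 in *KEAP1* KO #1, 655, 686 and 657 in #2, 676, 639 and 695 in #3 and 558, 577 and 522 in *NRF2* KO. It rose by 0.28, 0.41 and 0.42 (adjusted p = 0.031, 0.0027 and 0.0023), and it was also higher in the mean of the *KEAP1* KO clones than in *NRF2* KO (0.23, adjusted p = 0.024). *Cox7b* was 201, 199.8 and 163 TPM in LL2 WT, 230.3, 231 and 249.7 in *KEAP1* KO #1, 234, 241 and 221 in #2, 252, 226 and 257 in #3 and 232, 206 and 185 in *NRF2* KO, with rises of 0.34, 0.31 and 0.39 (adjusted p = 0.031, 0.037 and 0.013). Both genes lost the call in *KEAP1* KO #1 with median ratio scaling, without LL2 WT replicate 3 and without any 1 of its own samples. *Cox7c*, another small subunit, rose in *KEAP1* KO #2 and #3 (0.43 and 0.56, adjusted p = 0.017 and 0.0039) and gave 0.36 in #1 (adjusted p = 0.051). *Ndufa4* rose in *KEAP1* KO #1 and #3 (0.54 and 0.59, adjusted p = 0.037 and 0.019). *Cox7a2l* went the other way: it was 352, 298 and 496 TPM in LL2 WT and 238, 224 and 259.9 in *KEAP1* KO #1, where it fell (−0.64, adjusted p = 0.014), with −0.42 and −0.23 in #2 and #3 (adjusted p = 0.065 and 0.31). *Cox7a1*, a muscle isoform near the low end at 0.357 to 4.41 TPM, gave −1.07 in *KEAP1* KO #3 with an adjusted p of 0.23.

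In complex V, 1 of 17 nuclear members fell in *KEAP1* KO #1 and 1 rose in each of #2 and #3. Of all genes tested, 7.25% fell in *KEAP1* KO #1, and 17.3% and 16.6% rose in #2 and #3. *Atp5md*, a small membrane subunit that helps pair the enzymes, was 825, 977 and 599.9 TPM in LL2 WT, 962, 974 and 974 in *KEAP1* KO #1, 1141, 1187 and 1021 in #2, 1205, 1141 and 1043 in #3 and 939.8, 974 and 721 in *NRF2* KO. It rose in *KEAP1* KO #2 and #3 (0.51 and 0.52, adjusted p = 0.027 and 0.023), and both calls were lost with median ratio scaling and without LL2 WT replicate 3. *Atp5d*, a subunit of the central stalk, fell in *KEAP1* KO #1 by 0.34 (adjusted p = 0.050), a call that was lost in most settings in which 1 sample was left out. The stalk subunit *Atp5c1*, listed among the most lowered of complex V, went from 708, 736 and 547 TPM in LL2 WT to 561, 557 and 496 in *KEAP1* KO #3 and did not pass (−0.29, adjusted p = 0.12). *Atp5g2*, 1 of the genes of the membrane ring, shared its sequence with the processed pseudogene *Gm10175*, which held 95.0% to 98.4% of the pair. Its sign turned with the copy, from 0.56 (adjusted p = 0.11) as listed to −0.30 (adjusted p = 0.047) in *KEAP1* KO #3, so no direction can be given. *Ndufb4* of complex I shared reads in the same way with *Ndufb4c*, which held 88.1% to 91.4%.

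**Figure D5:**
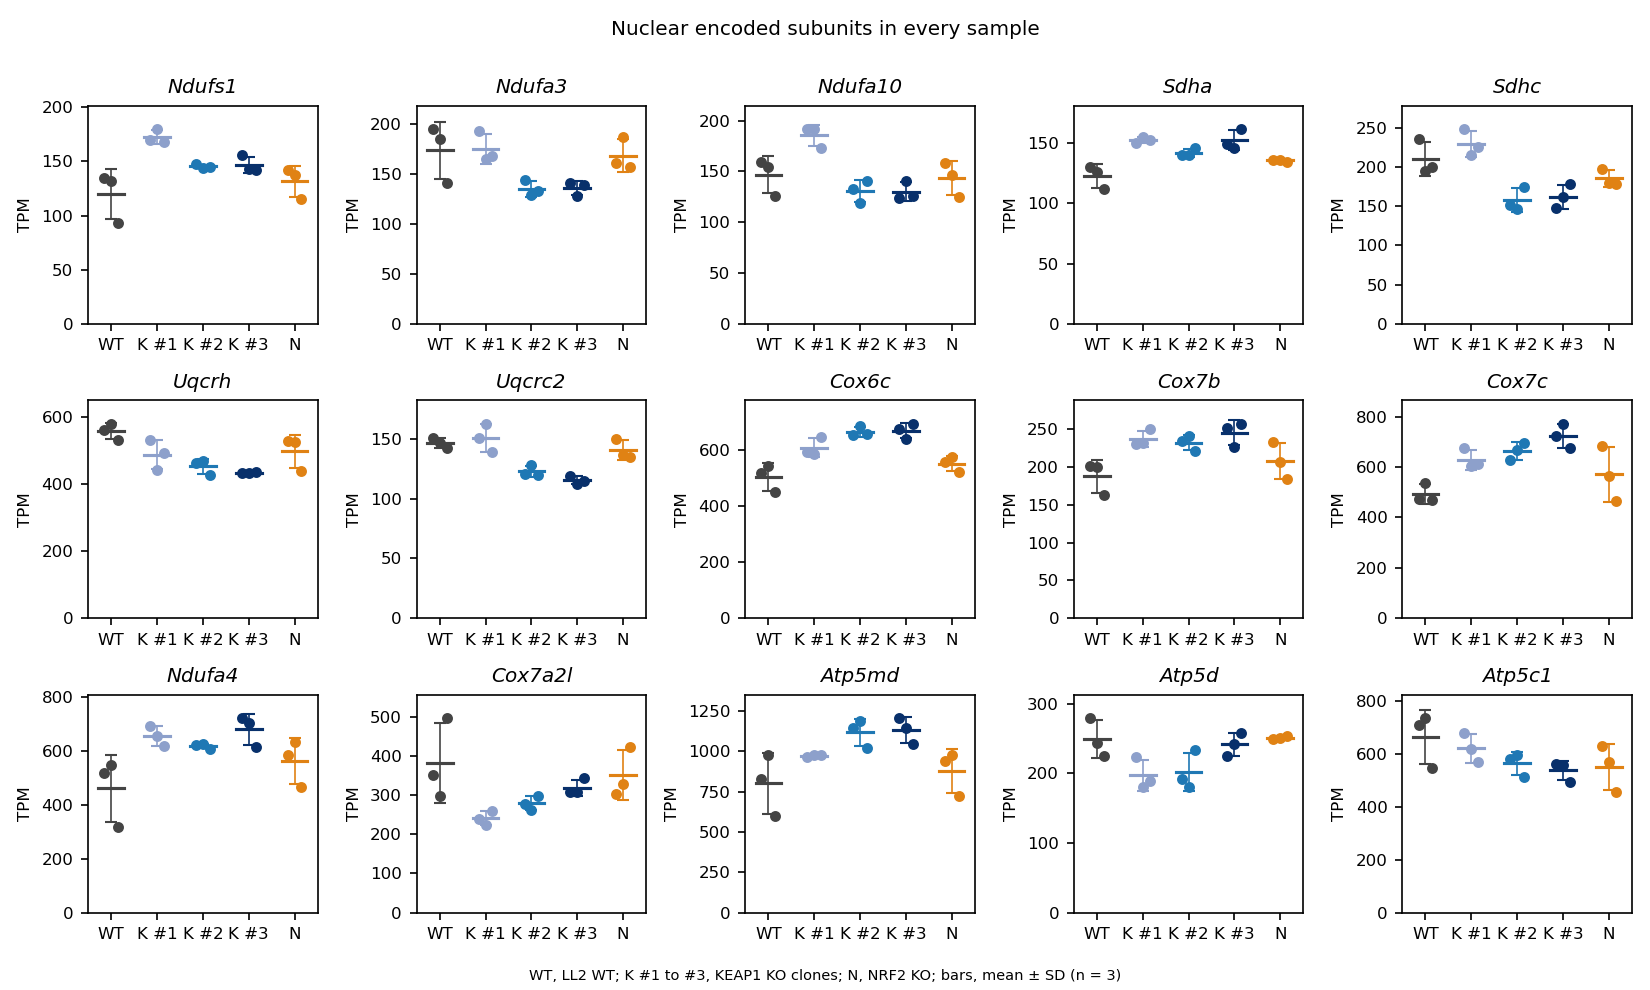
Level in TPM of 15 nuclear members in every sample, with the mean ± SD of each line (n = 3). *Sdha*, *Cox6c* and *Cox7b* lie higher in all *KEAP1* KO clones than in LL2 WT (in #1 all 3 lose the call with median ratio rescaling), and *Uqcrc2* and *Sdhc* lie lower in #2 and #3.

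The promoters of *Sdha* and *Cox7b*, which rose in every *KEAP1* KO clone, and of *Uqcrh*, which fell in *KEAP1* KO #2 and #3, are shown as RefSeq gives them for GRCm38.p6, with bases inside the annotated gene left out. No entry matched *Cox6c*. They run 5′ to 3′ on the strand of the gene and cover chr13:74350281-74350490 (minus strand), chrX:106015450-106015699 (plus strand) and chr4:116075072-116075320 (minus strand). Capitals mark motif matches on either strand.
Sdha: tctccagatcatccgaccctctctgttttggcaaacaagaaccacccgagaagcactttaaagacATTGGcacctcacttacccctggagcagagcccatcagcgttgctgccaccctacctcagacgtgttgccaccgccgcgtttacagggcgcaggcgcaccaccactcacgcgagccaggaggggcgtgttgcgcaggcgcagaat
Cox7b: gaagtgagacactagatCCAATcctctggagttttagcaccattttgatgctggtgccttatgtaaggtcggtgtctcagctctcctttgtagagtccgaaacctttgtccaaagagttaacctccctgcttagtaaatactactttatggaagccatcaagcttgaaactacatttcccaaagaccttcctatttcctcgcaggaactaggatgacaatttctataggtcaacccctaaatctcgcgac
Uqcrh: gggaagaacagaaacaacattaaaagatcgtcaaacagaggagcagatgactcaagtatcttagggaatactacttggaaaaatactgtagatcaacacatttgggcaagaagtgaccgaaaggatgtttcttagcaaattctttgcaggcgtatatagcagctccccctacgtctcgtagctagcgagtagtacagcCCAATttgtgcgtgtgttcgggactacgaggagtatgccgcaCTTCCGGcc
Windows of 250 bases before the start were found for 66 of the 78 nuclear members (71 windows) and searched on both strands. The 10-base palindrome of nuclear respiratory factor 1 was in 5.63% of them and in 0.782% of all 32851 windows of the same length. The ETS motif CCGGAAG, which GABP reads, was in 16.9% against 6.91%. The core of the antioxidant response element, TGACNNNGC, which NRF2 reads, was in 7 of the 71 (9.86%) and in 3338 of the 32851, and CCAAT was in 40.8% against 33.8%. *Sdha* and *Cox7b* held 1 CCAAT match each, and *Uqcrh* held 1 CCAAT and 1 ETS match. These are matches of letters and not measured sites.

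The mean of the 3 *KEAP1* KO clones was compared with both other lines. Against LL2 WT, 7 mitochondrial and 11 nuclear members rose and 5 nuclear members fell, beside 21.6% and 15.8% of all genes tested. Without LL2 WT replicate 3, 14 nuclear members fell, and with median ratio scaling 10 did. Without LL2 WT replicate 1, 4 mitochondrial members rose. Calls over all genes tested went from 5473 to 4107 without LL2 WT replicate 3 and to 4015 without replicate 1. The comparison with *NRF2* KO shares the *KEAP1* KO samples with those above but not LL2 WT. In it 9 members passed the test, 7 mitochondrial and 2 nuclear, and all 9 were higher in the *KEAP1* KO clones. Of the 14652 genes tested, 1997 were higher and 1803 lower, together 25.9%. The 7 mitochondrial members were *mt-Nd1* (0.85), *mt-Nd3* (0.53), *mt-Nd4* (0.37), *mt-Nd4l* (0.48), *mt-Nd5* (0.51), *mt-Nd6* (0.51) and *mt-Co1* (0.39), and the nuclear members were *Cox6b1* (0.56) and *Cox6c* (0.23), both of complex IV. *Cox6b1* was 330, 406 and 312 TPM in *NRF2* KO and 526, 524 and 342 in LL2 WT. It was 574, 582 and 559 TPM in *KEAP1* KO #1, 487, 510 and 440 in #2 and 526, 465 and 473 in #3. For this gene *KEAP1* KO #2 and #3 thus overlapped LL2 WT. With copies added 8 mitochondrial and 3 nuclear members were higher, with *mt-Nd3* at 0.64 (adjusted p = 0.0034) and *mt-Co2* at 0.53 (adjusted p = 0.0049, against 0.33 and 0.064 as listed). The mean holds *KEAP1* KO #1 with the other two, so it does not describe any 1 clone. Without *NRF2* KO replicate 1, the lowest of that line for the mitochondrial sum, 2 mitochondrial members were higher, and without LL2 WT replicate 3, which enters through the shared spread, 17 members were. Over all genes tested the calls went from 3800 to 2614 and 4367 in these settings.

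In *NRF2* KO, 0 of 91 members rose or fell against LL2 WT in limma, beside 0.130% and 0.491% of all genes tested, and 3 reached an unadjusted p under 0.05. Log2 fold changes of the members lay between −0.56 and 0.56, with medians of 0.06 for the nuclear and −0.05 for the mitochondrial ones. The 2 outermost mitochondrial values were those of *mt-Nd3* and *mt-Atp6*, which became −0.05 and 0.02 with their copies added. *Nqo1* fell in the same comparison by 1.61 on the log2 scale (adjusted p = 5.68e-05). With LL2 WT replicate 3 left out, 1 member was lower, and no other sample left out gave a call.

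Among the genes around the respiratory chain, the coactivators and factors that drive mitochondrial biogenesis had 4 of 8 listed genes higher in each *KEAP1* KO clone, with 0, 1 and 1 lower. The shares of all genes to set beside this and the following lists are again 15.9%, 17.3% and 16.6% higher and 7.25%, 14.6% and 14.8% lower in *KEAP1* KO #1, #2 and #3. *Ppargc1a*, the coactivator PGC-1α, was 0.781, 0.511 and 0.800 TPM in LL2 WT, 4.78, 5.12 and 5.50 in *KEAP1* KO #1, 2.33, 2.48 and 2.12 in #2, 2.60, 2.58 and 4.96 in #3 and 0.367, 0.555 and 0.896 in *NRF2* KO. The *KEAP1* KO samples lay above all others at a low level, and the gene rose in each clone (2.73, 1.61 and 2.08), most in *KEAP1* KO #1. Its part in the levels of the mitochondrial messengers was not tested. *Esrra*, a receptor that PGC-1α coactivates, rose by 0.37, 0.50 and 0.57, and *Pprc1*, a relative of PGC-1α, by 0.66, 0.76 and 0.52. *Gabpa* rose in *KEAP1* KO #2 and #3 (0.45 and 0.48), where its partner *Gabpb1* fell (−0.31 and −0.30). *Tfam* averaged 77.4 TPM in LL2 WT and 74.2, 83.3 and 91.2 in *KEAP1* KO #1, #2 and #3. *Nrf1*, the gene of nuclear respiratory factor 1, averaged 33.4 TPM in LL2 WT and 36.0, 30.0 and 30.1 in the clones. Both genes overlapped LL2 WT in every clone.

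Genes that copy, transcribe and stabilize mitochondrial nucleic acids included 5, 7 and 4 rises and 0, 2 and 2 falls among 25 tested, with the 4 in *KEAP1* KO #3 near the share of all genes. *Lrpprc*, whose protein stabilizes mitochondrial messengers, was 60.8, 65.9 and 40.8 TPM in LL2 WT, 64.3, 73.1 and 59.5 in *KEAP1* KO #1, 89.2, 87.6 and 77.5 in #2, 87.9, 90.3 and 81.5 in #3 and 71.9, 75.4 and 62.3 in *NRF2* KO. It rose in *KEAP1* KO #2 and #3 (0.63 and 0.66), whose samples lay above all others. *Trmt10c*, part of the enzyme that cuts the precursors at tRNAs, rose in every clone (0.64, 0.78 and 0.75).

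Of 47 assembly factors, 4, 4 and 5 rose and 2, 6 and 8 fell in the 3 clones, and the shares that rose lay below those of all genes. *Cox14* rose in *KEAP1* KO #1 (1.04) and *Cox20* fell in #2 (−1.03), and both assist cytochrome c oxidase. Of 78 mitochondrial ribosomal proteins 7, 8 and 10 rose and 3, 7 and 5 fell, also below those shares, with *Mrpl14* at 1.49 and 1.42 in *KEAP1* KO #2 and #3. Of 18 enzymes of the tricarboxylic acid cycle and the pyruvate dehydrogenase complex 8, 7 and 4 rose and 0, 2 and 2 fell. Among them citrate synthase (*Cs*) rose in *KEAP1* KO #2 and #3 (0.43 and 0.53), and *Idh2*, the NADP-dependent isocitrate dehydrogenase, fell (−0.67 and −0.65). Coenzyme Q genes gave 1, 1 and 2 rises and 0, 3 and 2 falls among 13, with *Coq7* higher in each clone (1.03, 1.26 and 1.33). Of the 7 subunits and electron carriers whose symbols the rule does not take in, 0 rose and 0, 2 and 2 fell, among them *Etfb* (−0.86 and −1.02 in *KEAP1* KO #2 and #3), a subunit of the flavoprotein that feeds electrons from fatty acid oxidation. In *NRF2* KO 0 genes of these lists passed the test.

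Levels in LL2 WT differed widely between and within the complexes. Per length, nuclear members had a median of 192 TPM and ranged from 2.85 to 1312, and mitochondrial members had a median of 1776 TPM and ranged from 453 (*mt-Nd5*) to 7711 (*mt-Atp8*). By complex, the median of the nuclear members was 134 TPM in complex I, 142 in II, 248 in III, 382 in IV and 407 in V. Nuclear members with a known position numbered 75, spread over 19 chromosomes.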

How the data were processed

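RNA of 15 samples (5 lines, 3 replicates each) was used, with groups taken from the titles and genotypes. The authors' methods name the KAPA mRNA Hyperprep kit for the libraries. How evenly that kit captures mitochondrial and nuclear messengers was not tested. The authors deposited 1 table, which they call CPM, made with Kallisto v0.48.0 against GRCm38.p6 cDNA per their methods; the processing notes name kallisto, bcl2fastq 1.9.0 and GRCm39. For 16123 genes with 1 transcript, low values times transcript length less 220 to 264 bases were whole multiples of 1 step in 73.1% to 76.5% of cases (tolerance 0.1 of a step, where chance gives 20%), against 20.2% to 24.8% unscaled. So the deposited values are treated as TPM, scaled by the authors for length, and the planned test on a log scale was kept. 1 row without a symbol (0.0214% to 0.0491% of a sample) was left out, no pair of samples was identical, and depth was inferred only.

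Genes with a sum of at least 3 over the 15 samples (14652, with 21228 removed) were tested as log2(TPM + 0.1) in limma 3.58.1 (R 4.3.3; 1 coefficient for each line, differences between them, moderated variances with a trend), with Benjamini-Hochberg adjustment over all of them at 0.05, and the code was tested on simulated data. Fold changes on this scale understate changes of low genes. Shared stretches of 31 bases with pseudogene copies came from GENCODE vM21 transcripts; copies sharing at least 10% were added back in an alternative chosen after seeing the data.

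The members, lists and tests were chosen with earlier results of these data known. Genes named are all mitochondrial members, in each complex the 3 nuclear members highest and the 3 lowest in the mean of the *KEAP1* KO clones and the 1 highest and lowest in *NRF2* KO (in part given in counts only), and those past a log2 fold change of 1. *Cox6c*, *Cox7b*, *Ndufs3*, *Ndufa3*, *Ndufa10*, *Uqcrfs1*, *Ndufb4* and the genes outside the complexes were chosen after their values were seen. Alternatives were other pseudocounts, filters, scalings, models, a replicate block and each sample left out. Python 3.11.15 with numpy 2.4.6, pandas 2.3.3 and matplotlib 3.10.9 did the rest.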

Additional observations from a re-analysis of the deposited data

Results flagged for a closer look

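Several members differed between *KEAP1* KO clones by the test of the difference itself. *mt-Nd2* is among them although it passed the test against LL2 WT in 0 clones. Against *KEAP1* KO #1, *KEAP1* KO #2 was higher on the log2 scale for *mt-Nd3* (1.33), *mt-Nd2* (0.78), *mt-Cytb* (0.63), *mt-Co2* (0.60) and *mt-Nd4* (0.50), and lower for *Sdhc* (−0.54) and *Uqcrc2* (−0.29). *KEAP1* KO #3 was higher than *KEAP1* KO #1 for *mt-Nd3* (1.35), *mt-Nd1* (0.89), *mt-Nd2* (0.78), *mt-Atp6* (0.66), *mt-Co3* (0.64), *mt-Co2* (0.56), *mt-Nd5* (0.48), *mt-Nd4* (0.44) and *mt-Co1* (0.39), and lower for *Sdhc* (−0.50) and *Uqcrc2* (−0.38). The nuclear genes named here are only a part: 8 nuclear members were lower in *KEAP1* KO #2 and 5 in #3, beside 7.15% and 7.7% of all genes tested. For the mitochondrial members that were higher, 5 and 9, the shares of all genes were 3.94% and 4.55%. With pseudogene copies added, 6 and 5 mitochondrial members passed the test in these comparisons, and *mt-Atp6*, *mt-Co3*, *mt-Co2* and *mt-Co1* no longer did for *KEAP1* KO #3 (adjusted p from 0.053 to 0.12).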

How the results depend on the processing

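Counts of members depended on the setting. The 80 calls of single members, recomputed under each setting, held in 1706 cases, were lost in 347 and reversed in 0. Many of these settings change only the pseudocount or leave out a sample of neither line compared. The tally thus does not measure how robust the calls are. *Atp5g2*, not called as listed, changed sign with its copy, and quantile normalization turned the median of the nuclear members from 0.01 to −0.10 in *KEAP1* KO #2 and from 0.07 to −0.04 in #3. Counts below are higher and then lower, over all 91 members. Where only 1 direction is named, the other count is left out. Median ratio rescaling gave 1 and 4 in *KEAP1* KO #1, 9 and 8 in #2, 11 and 10 for the mean of the clones against LL2 WT, and 1 lower against *NRF2* KO. Quantile normalization gave 6 and 5 in #1, 17 lower in #2, 14 lower in #3, 19 lower for the mean, and 9 lower against *NRF2* KO. With it, 6 nuclear and 12 mitochondrial members were higher in #2, and as many in #3. For the mean 6 nuclear and 11 mitochondrial members were higher, and against *NRF2* KO 1 and 10. Without a filter, 1 was lower in #1 and 3 for the mean, and with a mean of at least 1, 1 was lower against *NRF2* KO. Without mitochondrially encoded genes, which removes 13 members by construction, 8 were higher in #2, 11 and 3 for the mean, and 2 higher against *NRF2* KO. With only the compared lines in the model, which leaves fewer samples, there were 0 and 0 in #1, 7 and 0 in #2, 9 and 2 in #3, and 15 and 2 against *NRF2* KO. With replicate 3 of each line as a batch there were 29 and 5, 28 and 14, 31 and 11, 32 and 12, and 24 and 4 in the order #1, #2, #3, mean against LL2 WT and mean against *NRF2* KO. Calls over all 14652 genes grew as well in that order, from 3392, 4680, 4604, 5473 and 3800 to 5977, 7048, 6938, 7622 and 5984. The cause of these shifts was not tested, and *NRF2* KO against LL2 WT stayed at 0 and 0 in each of these settings.

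With the replicate number as a block there were 25 and 5 in #1, 29 and 13 in #2, 31 and 10 in #3, 34 and 13 for the mean, and 24 and 4 against *NRF2* KO. Calls over all 14652 genes grew as well, from 3392 to 5979 in #1, 4680 to 7049 in #2 and 4604 to 6914 in #3. For the mean they went from 5473 to 7610, and against *NRF2* KO from 3800 to 5997. The labels do not tie the numbers to a shared culture or day, and not every pair deviated together, so the samples were not treated as paired: over 11676 genes, deviations of same-numbered samples correlated with a median of 0.276 (−0.022 to 0.631), 22 of 30 pairs being over 0.1, against −0.192 for 60 pairs with different numbers.

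Leaving out 1 sample at a time gave 2 to 14 higher and 0 to 3 lower in #1, 5 to 20 and 1 to 13 in #2, 11 to 24 and 2 to 13 in #3, 0 to 0 and 0 to 1 in *NRF2* KO, 12 to 21 and 2 to 14 for the mean, and 6 to 17 and 0 to 2 against *NRF2* KO. Calls over all genes tested moved as well, over 2012 to 3982 in #1, 3200 to 5235 in #2 and 3264 to 4979 in #3. Pseudocounts of 0.5 and 1 left all counts as they were. Of the 11 mitochondrial members long enough for an estimate, *mt-Nd3* had the fewest implied read pairs (1672 at the least), and the division among copies and the 3 samples a line limit the precision.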
